A study of Rattus norvegicus with 16 samples.

Results

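Tac3 and Tac1 code for the precursors of the tachykinin neuropeptides. Both genes were followed across adrenal tissue of p27Kip1-mutant and wild-type rats. The members were all probe sets whose single gene symbol in the array annotation is Tac3 or Tac1, which gave 2 probe sets, 1 for each gene, of 31042 probe sets and 14217 named genes in all. The genes were chosen by their measured levels in these groups, which were known from earlier results, so levels and group differences are given as a description, with no test.

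The series holds 16 expression arrays of rats of a mixed Sprague–Dawley white eye/Wistar–Kyoto strain. Of these, 4 held pheochromocytoma, a chromaffin cell tumour that makes catecholamines, from animals labelled p27Kip1 (Cdknb1) mutant. The first 3 tumours came from rats of 8 months labelled female, and the rat of pheochromocytoma 4 was aged 9 months and labelled male. Their controls were 2 pools of adrenomedullary tissue from older wild-type rats, 1 of 2 animals of 10 months labelled female and 1 of 2 animals of 12 and 17 months labelled male. Another 8 arrays held adrenal hyperplasia of p27Kip1-mutant rats of 2 months, 4 labelled female and 4 labelled male. Their controls were 2 pools of wild-type rats of 2 months, 1 of 2 animals labelled male and 1 of 3 animals labelled female. The tumours and older wild-type rats differ from the other rats in age as well as in lesion, and a pool of animals shows less than the spread between single animals. Values are log2 intensities after robust multi-array averaging, each level is a mean ± SD over arrays, and each difference is a log2 difference ± standard error from limma over all 16 arrays.

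Tachykinins are short peptides that share a common end and are cut from larger precursors in dense core granules. Tac3 gives neurokinin B, which prefers the receptor NK3 (Tacr3). Tac1 gives substance P and neurokinin A, which prefer NK1 (Tacr1) and NK2 (Tacr2). All 3 receptors act through Gq and phospholipase C, and the peptides are cleared by cell-surface peptidases such as neprilysin (Mme). Neurokinin B is best known from hypothalamic neurons that drive gonadotropin-releasing hormone, and substance P from sensory neurons, and substance P can alter catecholamine release from chromaffin cells.

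Several measures of the arrays move with the groups. Over all probe sets, r was 0.981 to 0.996 between arrays within a group and 0.940 to 0.987 between groups. The mean of 11 chromaffin cell markers was 12.41 to 12.75 in pheochromocytoma, 11.86 to 12.36 in older wild type, 12.65 to 12.81 in hyperplasia and between 12.53 and 12.70 in the young pools. The mean of 9 adrenal cortex markers was 10.28 to 11.61 in pheochromocytoma, 11.88 to 12.22 in older wild type, 10.38 to 11.20 in hyperplasia and between 11.54 and 11.69 in the young pools, so the tissue labelled as medulla held cortical transcripts. The hexokinase control probe sets, whose 3′ minus 5′ difference grows as RNA is degraded or shortened, differed by 2.16 to 3.30 in pheochromocytoma and 2.29 to 2.92 in older wild type, against 1.21 to 1.64 in hyperplasia and between 1.07 and 1.18 in the young pools. Cdkn1b, the gene of p27Kip1, was 11.39 to 11.70 in pheochromocytoma against 10.45 and 10.73 in older wild type, and 11.58 to 11.86 in hyperplasia against 10.89 and 11.04 in young wild type, on the brighter of 2 probe sets. The other Cdkn1b probe set differed by 0.0025 in pheochromocytoma (limma, adjusted p = 0.997) and by -0.81 in hyperplasia (adjusted p = 0.0676). Neither has a stated position relative to the mutation, so they do not check the genotype. Xist, which is transcribed from the inactive X chromosome of females, went against the labelled sex on 6 of 16 arrays, namely 4 hyperplasias and both young wild-type pools.

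The Tac3 probe set (designed on the RefSeq transcript of the gene) reads the neurokinin B precursor gene, which RefSeq places at 65447817 to 65454427 of chromosome 7 in build GRCr8. Its log2 value was 8.83, 7.57, 7.56 and 11.95 in pheochromocytomas 1 to 4. In the older wild-type pools it was 4.62 and 4.54. Each tumour was far above both pools, and pheochromocytoma 4 stood 3.12 above the next tumour. The means were 8.98 ± 2.07 in pheochromocytoma (SD, n = 4) and 4.58 ± 0.06 in older wild type (SD, n = 2), a difference of 4.40 ± 0.95, or 21.1-fold. Without pheochromocytoma 4 the difference was 3.41 ± 0.64, or 10.6-fold, and the other tumours averaged 7.98 ± 0.73 (SD, n = 3). Of all probe sets, 20.0% were higher in every tumour than in both older pools.

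In hyperplasia the Tac3 value was 7.27, 8.18, 5.23, 6.43, 6.77, 7.60, 7.23 and 7.94 on arrays 1 to 8. In the young wild-type pools it was 4.32 and 4.10. All 8 hyperplasias lay above both pools, with hyperplasia 3 the nearest to them. The means were 7.08 ± 0.94 in hyperplasia (SD, n = 8) and 4.21 ± 0.16 in young wild type (SD, n = 2), a difference of 2.87 ± 0.87, or 7.32-fold. Of all probe sets, 9.81% were higher in every hyperplasia than in both young pools. On all 4 wild-type arrays the Tac3 value was dimmer than the first quartile of the array (4.71 to 4.93 over the 16 arrays). The files give no detection calls, so both folds rest on wild-type values that may hold no Tac3 signal.

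Pheochromocytoma and hyperplasia differed less clearly. Pheochromocytomas 1 and 4 were above the highest hyperplasia, and pheochromocytomas 2 and 3 lay among the hyperplasias. The difference was 1.90 ± 0.67, or 3.72-fold, and 0.90 ± 0.48, or 1.87-fold, without pheochromocytoma 4. Older and young wild type differed by 0.37 ± 1.10. The order of the group means was therefore pheochromocytoma, hyperplasia, older wild type and young wild type, with the first pair overlapping array by array and the last pair separated by less than the standard error. Fewer cells of a type and less RNA per cell cannot be told apart in such bulk tissue, and each mutant group differed from its wild-type pools in cortex markers too, with 7 of 9 lower in pheochromocytoma and 3 of 9 lower in hyperplasia in limma (adjusted p under 0.05), where 5.95% and 3.08% of all probe sets were lower. Their part in the Tac3 difference was not tested.

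**Figure D1:**
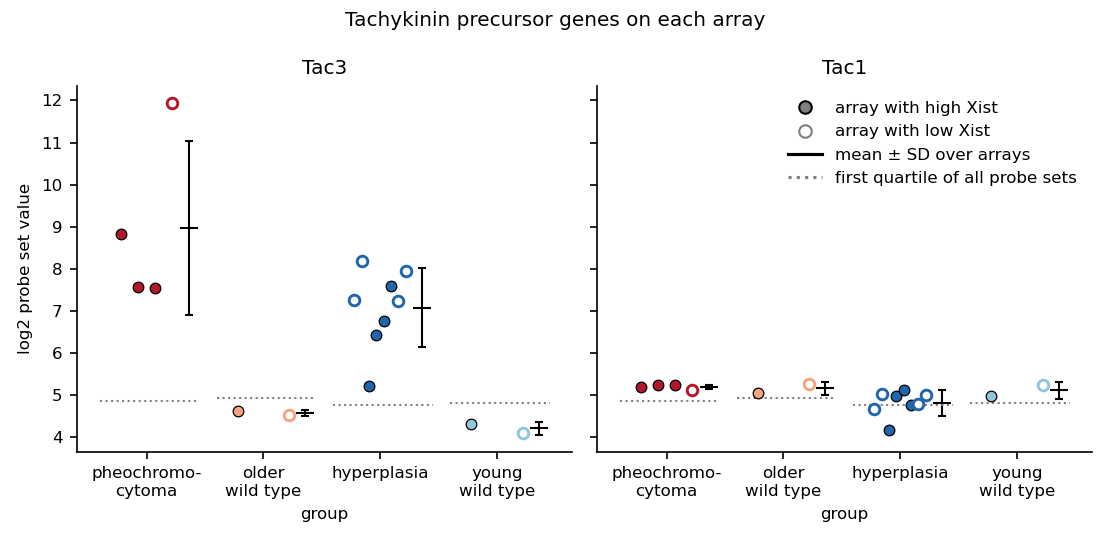
Each point is 1 array, with the log2 value of Tac3 (left panel) and Tac1 (right panel) on the vertical axis and the 4 groups on the horizontal axis. Filled points are arrays with high Xist, open points are arrays with low Xist, bars are means ± SD and dotted lines are the mean first quartile of the arrays of a group. Tac3 lay between 7.56 and 11.95 in pheochromocytoma against 4.54 and 4.62 in older wild type, and Tac1 lay between 4.16 and 5.27 in all groups.

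The spread of Tac3 within a group was itself large. In pheochromocytoma its SD of 2.07 was exceeded by 12 of 31042 probe sets, whose median SD was 0.145. In hyperplasia its SD of 0.94 was exceeded by 83 probe sets, against a median SD of 0.181. The hyperplasia arrays differed in measured composition as well. Across the 8 hyperplasias the cortex marker mean correlated with Tac3 at r = 0.801, while across all 12 mutant arrays the correlation was -0.023. The hexokinase 3′ minus 5′ difference correlated with Tac3 at r = 0.29 across the 8 hyperplasias. These correlations describe arrays that also share RNA quality and dissection.

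Among hyperplasias the Tac3 values of the labelled sexes overlapped. Tac3 averaged 6.77 ± 1.25 in hyperplasias labelled female and 7.39 ± 0.50 in those labelled male (SD, n = 4 each), a difference of -0.61 (exact permutation test, two-sided, p = 0.4286, 0.4286 after Benjamini-Hochberg adjustment over Tac3 and Tac1). Tac1 differed by -0.22 between the same arrays (exact p = 0.4, adjusted 0.4286). Since 4 of these 8 labels went against Xist, the arrays were also split by Xist. Tac3 was then 5.23 to 7.60 on the 4 arrays with high Xist and 7.23 to 8.18 on the 4 with low Xist, a difference of -1.15 (exact p = 0.0857, adjusted 0.1714), with overlap. With 4 arrays against 4, the smallest p that the 70 splits allow is 0.0286. Pheochromocytoma 4, the tumour with the most Tac3, was also the only tumour with low Xist, and 1 array does not allow a test.

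The Tac1 probe set (designed on an expressed sequence tag) reads the substance P and neurokinin A precursor gene, at 36645344 to 36653548 of chromosome 4 in GRCr8, for which RefSeq lists 4 curated transcripts. Its log2 value was 5.18, 5.23, 5.23 and 5.13 in pheochromocytomas 1 to 4. In the older wild-type pools it was 5.06 and 5.27. The tumours lay between the pools, and the means were 5.19 ± 0.05 in pheochromocytoma and 5.16 ± 0.15 in older wild type, a difference of 0.03 ± 0.20. In hyperplasia the Tac1 value was lowest at 4.16, had a median of 4.89 and was highest at 5.12. In young wild type it was 4.98 and 5.25. The groups overlapped, with means of 4.82 ± 0.30 in hyperplasia and 5.11 ± 0.20 in young wild type, a difference of -0.29 ± 0.18. Every tumour was above every hyperplasia, as were 12.5% of all probe sets, by 0.37 ± 0.14 on average. The margin was small, with the lowest tumour at 5.13 and the highest hyperplasia at 5.12.

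The Tac1 values were dim, close to the first quartile of each array, so a difference could be missed. Tac1 followed Tac3 across the hyperplasias at r = 0.671, and at -0.063 over the 7 left without hyperplasia 3, the array lowest in both genes. Across the 12 mutant arrays r was 0.540.

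Motifs of factors that act on tachykinin promoters lie before the Tac1 start that the RefSeq promoter table uses, base 36645583 of chromosome 4. That start lies inside the gene span given above, as do both stretches, and the transcript it belongs to is not named in the table. The stretches are shown because the factors were measured on the same arrays. They come from RefSeq, build GRCr8, plus strand, and capitals mark the motif.

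E-box, chr4:36645499-36645528: tggggagagtgtCACGTGgctctccaggct
TGCGTCA, chr4:36645364-36645393: ttccctaaaatTGCGTCAtttcgaacccaa

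The E-box CACGTG, a motif of the USF factors, begins 72 bases before that start and is present on either strand in 6.42% of 33469 rat promoters of the same length (250 bases before to 50 after the start). The element TGCGTCA, which resembles the cyclic AMP response element, begins 208 bases before it and is present in 1.9% of promoters. The complete cyclic AMP response element TGACGTCA (1.83% of promoters) and the AP-1 motif TGANTCA (7.33%) were not matched in this window. A match describes the letters and does not show binding.

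Of the 6 measured factors known to act on tachykinin promoters, 1 passed the test in pheochromocytoma against older wild type, where 14.3% of all probe sets passed, 5.95% lower. It was Jun, a subunit of AP-1, lower by 1.25 ± 0.31 on the log2 scale (limma, adjusted p = 0.0149). In hyperplasia against young wild type 0 of the 6 passed in limma, where 7.4% of all probe sets did. None of the 6 had an unadjusted p under 0.05, which 7045 of 31042 probe sets had. In pheochromocytoma against hyperplasia 4 were lower, where 20.3% of all probe sets passed in that direction. Usf1, which binds E-boxes, was 7.90 ± 0.09 in pheochromocytoma (n = 4) and 8.97 ± 0.14 in hyperplasia (n = 8), a difference of -1.07 ± 0.09 (limma, adjusted p = 1.14e-07). Creb1, which binds the cyclic AMP response element, differed by -0.73 ± 0.17 (adjusted p = 0.00248), Jun by -0.91 ± 0.22 (adjusted p = 0.00349) and Rest, a repressor of neuronal genes, by -0.34 ± 0.08 (adjusted p = 0.00216). Usf1 and Creb1 were lower in older wild type than in young wild type too, by 1.17 and 1.09 on the log2 scale (limma, adjusted p = 3.65e-05 and 0.0091), and age and sample set cannot be told apart. Jun did not pass in pheochromocytoma against older wild type without older pool 2 (-0.60, adjusted p = 0.376) or with the mean of the cortex markers as a term of the fit, the cortex covariate (-0.54, adjusted p = 0.574), and Creb1 did not pass in older against young wild type without older pool 2 or without young pool 1 (adjusted p = 0.066 and 0.0764). Other probe sets of these genes did not all pass. Of 2 more Jun probe sets, 1 passed in pheochromocytoma against older wild type (-1.29, adjusted p = 0.00507) and 1 did not (-0.96, adjusted p = 0.0872). In pheochromocytoma against hyperplasia 1 of the 3 other Creb1 probe sets did not pass, at -0.08 (adjusted p = 0.451), nor did the other Rest probe set, at -0.14 (adjusted p = 0.306), while the other Usf1 probe set fell by 0.33 (adjusted p = 0.00441). In older against young wild type the other Creb1 probe sets differed by -1.58 (adjusted p = 0.00171), -0.72 (0.0513) and -0.16 (0.414).

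None of the 3 tachykinin receptors passed in limma between mutant tissue and its wild-type controls, on the brighter probe set of each gene. In pheochromocytoma 0 of 3 passed, where 14.3% of all probe sets did. There 1 had an unadjusted p under 0.05, as had 9187 of 31042 probe sets. In hyperplasia 0 of 3 passed, where 7.4% of all probe sets did, and 0 had an unadjusted p under 0.05, which 7045 probe sets had. Tacr3, the neurokinin B receptor, was 5.55, 5.52, 5.35 and 4.93 in pheochromocytomas 1 to 4. In the older wild-type pools it was 5.36 and 4.86. In hyperplasia Tacr3 was lowest at 6.53 and highest at 7.17, and in young wild type it was 7.19 and 6.85. Tacr3 was thus low in both older groups and high in both young groups, with no overlap between the ages, as were 14.0% of all probe sets in pheochromocytoma against hyperplasia and 31.9% in older against young wild type. It fell by 1.56 ± 0.16 on the log2 scale in pheochromocytoma against hyperplasia (limma, adjusted p = 9.1e-07) and by 1.91 ± 0.25 in older against young wild type (adjusted p = 7.24e-05), comparisons in which 40.7% and 23.7% of all probe sets passed, 20.3% and 13.3% in that direction. The hexokinase 3′ minus 5′ difference also separated the older from the young arrays, and its part in these differences was not tested.

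Tacr1, the substance P receptor, was 5.52 ± 0.03 in pheochromocytoma and 5.93 ± 0.26 in older wild type, a difference of -0.41 ± 0.16 that did not pass (limma, adjusted p = 0.092). A second Tacr1 probe set differed by -0.35 in the same comparison and did pass (adjusted p = 0.0469), so the 2 probe sets fell on opposite sides of the threshold. Tacr1 was higher in pheochromocytoma than in hyperplasia by 0.33 ± 0.11 (adjusted p = 0.0254), where 20.4% of all probe sets passed upward, and higher in older than in young wild type by 0.95 ± 0.18 (adjusted p = 0.00154), where 10.4% did. Against hyperplasia Tacr1 did not pass without any 1 of pheochromocytomas 1 to 3 (adjusted p = 0.0536 to 0.0621) or with quantile normalization (0.23, adjusted p = 0.0932). Tacr2, the neurokinin A receptor, was 6.58 ± 0.54 in pheochromocytoma and 7.54 ± 1.57 in older wild type, where the pools stood at 6.43 and 8.65. That difference of -0.96 ± 0.50 did not pass (adjusted p = 0.212).

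Of the 14 measured genes for tachykinin receptors, precursor processing and peptide breakdown, 3 passed in pheochromocytoma against older wild type, 1 higher and 2 lower, where 14.3% of all probe sets passed, 8.31% higher and 5.95% lower. In hyperplasia against young wild type 1 passed, lower, where 7.4% of all probe sets passed, 4.32% higher and 3.08% lower. The genes that passed were all peptidases. The median difference of the 6 peptidase genes was -0.11 in pheochromocytoma and 0.08 in hyperplasia, against -0.01 and -0.02 over all probe sets.

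**Figure D2:**
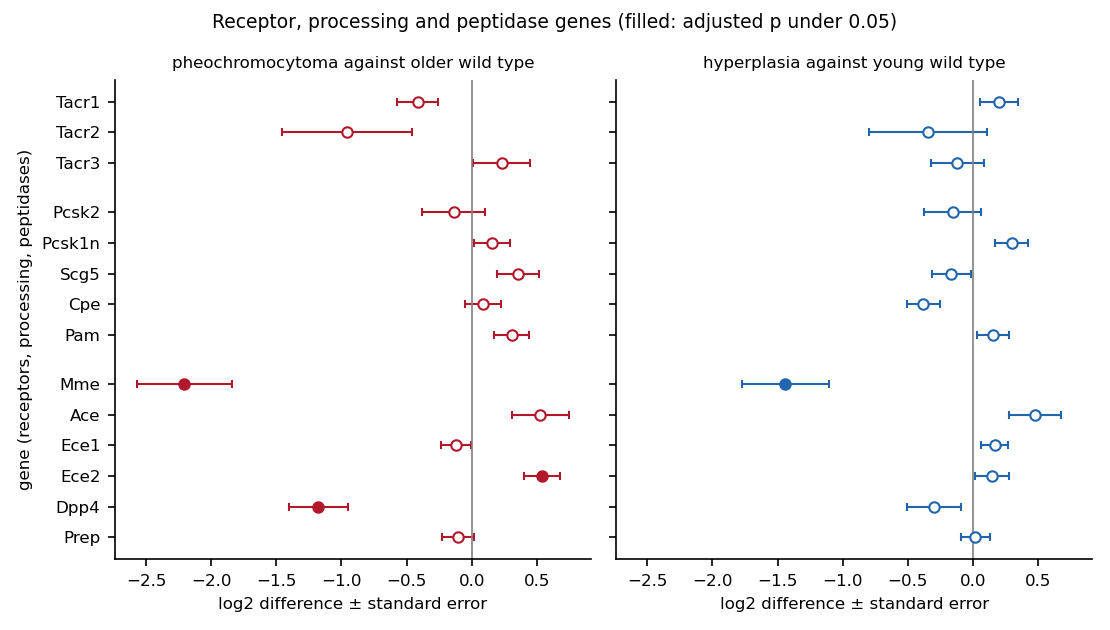
Points are log2 differences from limma, with bars of 1 standard error, on the horizontal axis for the 14 receptor, processing and peptidase genes, which run down the vertical axis. The left panel is pheochromocytoma against older wild type and the right panel hyperplasia against young wild type, and filled points have an adjusted p under 0.05. Mme stands farthest to the left in both panels, at -2.21 and -1.44.

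Mme codes for neprilysin, a cell-surface peptidase that cleaves substance P and other tachykinins. Its log2 value was 6.00, 5.93, 5.20 and 4.91 in pheochromocytomas 1 to 4, and 7.10 and 8.33 in the older wild-type pools. In hyperplasia it was lowest at 5.34, had a median of 6.18 and was highest at 6.54, and in young wild type it was 7.27 and 7.81. No mutant array reached the level of its wild-type pools, as was so for 19.9% of all probe sets in pheochromocytoma and 9.41% in hyperplasia. Mme fell by 2.21 ± 0.36 on the log2 scale in pheochromocytoma (limma, adjusted p = 0.00141) and by 1.44 ± 0.33 in hyperplasia (adjusted p = 0.0157). Among the 8 hyperplasias Mme correlated with Tac3 at r = 0.922, and hyperplasia 3 was lowest in both. On the same 8 arrays the cortex marker mean correlated with Tac3 at r = 0.801. Of the 819 variable genes described below, 14.9% reached an r of 0.7 there. Among the tumours, pheochromocytoma 4 had the most Tac3, at 11.95, and the lowest Mme of all mutant arrays, at 4.91.

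Without older wild-type pool 2 the pheochromocytoma difference was -1.59 (adjusted p = 0.0647), and with the cortex covariate it was -1.05 (adjusted p = 0.184). In hyperplasia the difference was -1.71 without young pool 1 (adjusted p = 0.0549), -1.17 without young pool 2 (adjusted p = 0.23), -0.63 with the cortex covariate (adjusted p = 0.325) and -1.54 without the 4 hyperplasias whose Xist disagreed with their label (adjusted p = 0.0758).

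Dpp4, a dipeptidyl peptidase that can trim substance P, was 5.27 to 5.73 in pheochromocytoma and 6.20 and 7.17 in older wild type. It fell by 1.18 ± 0.23 on the log2 scale (limma, adjusted p = 0.00356), and a second Dpp4 probe set fell by 1.02 (adjusted p = 0.010). In hyperplasia Dpp4 was 6.17 ± 0.22 against 6.47 ± 0.20 in young wild type, which did not pass. Ece2, a metalloprotease related to neprilysin that acts on neuropeptides, was 7.09 to 7.73 in pheochromocytoma and 6.94 and 6.87 in older wild type, higher by 0.54 ± 0.14 (adjusted p = 0.0177) on 1 probe set, while a second Ece2 probe set differed by 0.21 and did not pass (adjusted p = 0.504). Without older wild-type pool 2, Dpp4 differed by -0.70 (adjusted p = 0.138) and Ece2 had an adjusted p of 0.182. Neither passed with the cortex covariate (adjusted p = 0.295 for Dpp4 and 0.217 for Ece2) or in a fit of these 2 groups alone (adjusted p = 0.0502 and 0.121).

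**Figure D3:**
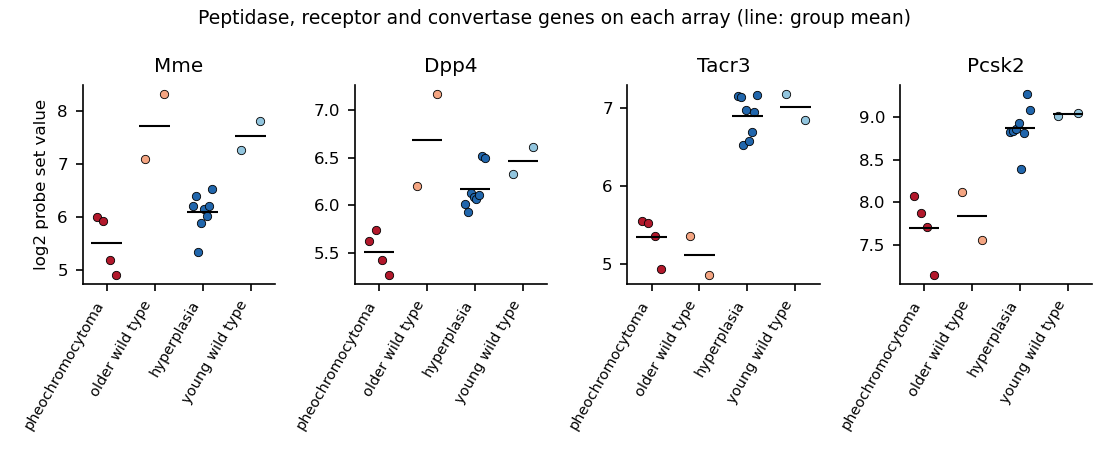
Each point is 1 array and each line a group mean of the log2 value (vertical axis) of Mme, Dpp4, Tacr3 and Pcsk2 in the 4 groups (horizontal axis). Mme was lower in both mutant groups than in their wild-type pools, whereas Tacr3 and Pcsk2 were lower in both older groups than in both young groups.

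Of the 5 measured genes for enzymes and chaperones that turn the precursors into peptides, 0 passed in either mutant against wild-type comparison in limma. Of all probe sets 14.3% passed in pheochromocytoma and 7.4% in hyperplasia. In each comparison 2 of the 5 had an unadjusted p under 0.05, as had 9187 of 31042 probe sets in pheochromocytoma and 7045 in hyperplasia. Between pheochromocytoma and hyperplasia Pcsk2, a prohormone convertase, was 7.70 ± 0.40 against 8.88 ± 0.25, a fall of 1.18 ± 0.17 on the log2 scale (limma, adjusted p = 3.85e-05). Pam, which amidates the end of peptides such as substance P, differed by -0.30 ± 0.10 in the same comparison on its brightest probe set (adjusted p = 0.0196), and by -0.22 (adjusted p = 0.0884) and 0.24 (adjusted p = 0.053) on the others, so the Pam probe sets did not share a direction. Among the peptidases Ace, the angiotensin-converting enzyme, fell by 1.03 ± 0.16 (adjusted p = 6.8e-05) and Dpp4 by 0.66 ± 0.16 (adjusted p = 0.00375). Pcsk2 also fell in older against young wild type, by 1.20 ± 0.28 (adjusted p = 0.00525), and Ace by 1.08 ± 0.26 (adjusted p = 0.00622). Between pheochromocytoma and hyperplasia the second probe sets did not pass, that of Ace at -0.19 (adjusted p = 0.0821) and that of Dpp4 at -0.18 (adjusted p = 0.415). In older against young wild type the second Ace probe set differed by -0.43 (adjusted p = 0.035). Pam did not pass without pheochromocytoma 2 (-0.25, adjusted p = 0.078), with quantile normalization (adjusted p = 0.0608) or without the 4 hyperplasias whose Xist disagreed (adjusted p = 0.0906). Between the wild-type ages, Pcsk2 and Ace did not pass without older pool 2 (adjusted p = 0.0701 and 0.0982).

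Downstream of the receptors, 6 of 18 measured genes of Gq and phospholipase C signalling passed in pheochromocytoma against older wild type, 5 higher and 1 lower, where 14.3% of all probe sets passed, 8.31% higher and 5.95% lower. Rgs4, which shortens Gq signals, was 12.46 ± 0.54 in pheochromocytoma and 10.56 ± 0.20 in older wild type, higher by 1.90 ± 0.24 (limma, adjusted p = 0.000241). The protein kinase C genes Prkcb and Prkca were higher by 1.33 ± 0.31 (adjusted p = 0.00975) and 1.18 ± 0.35 (adjusted p = 0.0346), and the phospholipase gene Plcb4 by 0.68 ± 0.14 (adjusted p = 0.00565). In hyperplasia against young wild type 3 were higher and 1 lower, where 4.32% and 3.08% of all probe sets were, among them Prkca at 1.30 ± 0.32 (adjusted p = 0.0216), the phospholipase gene Plcb3 at 0.53 ± 0.11 (adjusted p = 0.0088) and Prkcd, another protein kinase C, at -0.38 ± 0.10 (adjusted p = 0.036). Without older pool 2, Prkcb, Plcb4 and Prkca did not pass in pheochromocytoma (adjusted p = 0.113, 0.138 and 0.371), nor did Prkca without any 1 of pheochromocytomas 2 to 4 (0.0574 to 0.0708). With the cortex covariate none of the 4 passed, with Rgs4 at 1.36 (adjusted p = 0.0573), Prkcb at 0.35 (0.624), Prkca at 0.30 (0.797) and Plcb4 at 0.32 (0.421). On other probe sets Rgs4 differed by 1.98 (adjusted p = 0.000899), while Plcb4 at 0.28 (0.564) and Prkcb at 0.49 and 0.15 (0.344 and 0.494) did not pass. In hyperplasia, Prkca and Prkcd did not pass without either young pool (adjusted p = 0.097 to 0.222), Plcb3 without young pool 2 (0.226) and Prkcd without any 1 of hyperplasias 1, 3, 4 and 6 (0.0504 to 0.0559). With the cortex covariate Prkca was at 0.68 (0.395), Plcb3 at 0.51 (0.116) and Prkcd at -0.24 (0.432). Without the 4 hyperplasias whose Xist disagreed with their label, Plcb3, Prkca and Prkcd did not pass either (adjusted p = 0.069, 0.0987 and 0.101). The median of the list was 0.11 in pheochromocytoma and 0.14 in hyperplasia, against -0.01 and -0.02 over all probe sets.

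Neurokinin B neurons of the hypothalamus also make kisspeptin and dynorphin. Of 7 measured partner genes 1 passed in each comparison of mutant with wild-type tissue. Of all probe sets 14.3% passed in pheochromocytoma and 7.4% in hyperplasia. Pdyn, the dynorphin precursor, was 8.18 ± 0.52 in pheochromocytoma and 9.17 ± 0.13 in older wild type, a fall of 0.99 ± 0.29 on the log2 scale (limma, adjusted p = 0.0297). Gnrh1, the gonadotropin-releasing hormone gene, fell by 0.51 ± 0.14 in hyperplasia (adjusted p = 0.036), at values dimmer than the first quartile on every hyperplasia array. Pdyn did not pass without pheochromocytoma 4 (adjusted p = 0.0595) or either older pool (0.0662 and 0.244), and was at -0.23 with the cortex covariate (0.805). Gnrh1 did not pass without any 1 of hyperplasias 1, 5 and 6 (adjusted p = 0.052 to 0.0548), without either young pool (0.0563 and 0.426) or with the cortex covariate (0.437). Neither passed on its other probe set, which differed by -0.43 for Pdyn (adjusted p = 0.159) and, in the opposite direction to the first, by 0.22 for Gnrh1 (adjusted p = 0.473). Pgr, the progesterone receptor, differed between pheochromocytoma and hyperplasia by -1.60 ± 0.22 (adjusted p = 3.11e-05) and between older and young wild type by -1.86 ± 0.37 (adjusted p = 0.00184).

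Among 22 other neuropeptide genes 1 was higher and 3 were lower in each comparison of mutant with wild-type tissue. Of all probe sets 8.31% were higher and 5.95% lower in pheochromocytoma, and 4.32% and 3.08% in hyperplasia. Gal, the galanin precursor, was higher by 3.27 ± 0.47 in pheochromocytoma (limma, adjusted p = 0.00063) and by 4.25 ± 0.43 in hyperplasia (adjusted p = 4.62e-05). Gal and Tac3 were thus both far above wild type in the mutant tissue. Their r was -0.561 over the 12 mutant arrays and 0.040 over the 8 hyperplasias. In pheochromocytoma against hyperplasia Gal differed by -1.20 and Tac3 by 1.90, so the 2 mutant groups stood in opposite order. Vip fell by 1.83 ± 0.39 in pheochromocytoma (adjusted p = 0.00601) and by 1.90 ± 0.35 in hyperplasia (adjusted p = 0.00421), and Npy by 1.37 ± 0.26 (adjusted p = 0.00356) and 1.32 ± 0.24 (adjusted p = 0.00388). Vip did not pass in pheochromocytoma without older pool 2 (adjusted p = 0.0502) and in hyperplasia without young pool 2 (0.0651), nor Npy in hyperplasia without young pool 1 (0.0599). With the cortex covariate the adjusted p in pheochromocytoma and in hyperplasia was 0.217 and 0.0739 for Vip and 0.292 and 0.118 for Npy. Vip did not pass in hyperplasia without the 4 hyperplasias whose Xist disagreed with their label either (adjusted p = 0.0521). The other lower gene in pheochromocytoma was Pdyn, which is also among the partner genes above and is the same call. The other lower gene in hyperplasia was Calca, a calcitonin gene, at -1.08 (limma, adjusted p = 0.000782). It passed in all 11 alternatives that did not leave out a single array, the cortex covariate among them. When 1 array was left out, its difference was -1.27 to -0.88.

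The genes whose levels were most like Tac3 were sought by Pearson correlation over the 4 tumours and 8 hyperplasias, among 819 genes with an SD of at least 0.5 over these arrays and a highest value at or above 6.57, the median of all values. The 10 highest were Ube2ql1, Mreg, Adora2a, LOC102555503, Hs3st2, Vof16, Apoc1, Cox4i2, Prmt8 and Cldn5, with r of 0.873 to 0.942. All 10 were highest in pheochromocytoma 4 of the 12 mutant arrays. Mreg, Vof16 and Cldn5 reached 6.57 only on that array, at 8.63, 7.27 and 8.31, so for them this rank follows from the filter. Ube2ql1 was 6.79 to 7.79 and LOC102555503 was 6.02 to 6.86 on the other mutant arrays. Without pheochromocytoma 4 their SD would not have reached 0.5, so their rank is not independent of the filter either. All 10 genes were chosen for this likeness, which is therefore a description. The arrays differ in lesion, age and composition, and which of them were normalized together is not given.

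**Figure D4:**
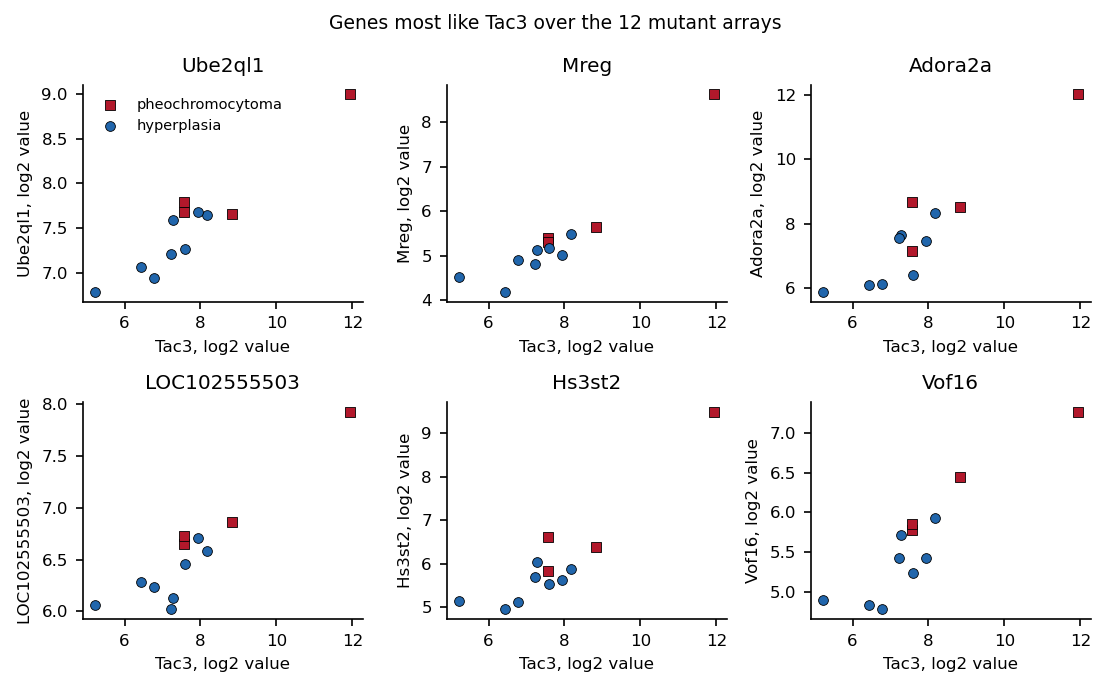
Each panel plots the log2 value of 1 of the 6 genes most like Tac3 (vertical axis) against that of Tac3 (horizontal axis) on the 4 pheochromocytoma arrays (squares) and 8 hyperplasia arrays (circles). Pheochromocytoma 4, at 11.95 for Tac3, lies at the upper right in each panel.

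Adora2a, an adenosine receptor gene, had the widest range of the 10. Its log2 value was 8.53, 7.15, 8.68 and 12.01 in pheochromocytomas 1 to 4 and 5.88 to 8.32 in hyperplasia, and 6.13 to 6.54 in older wild type and 5.87 to 6.25 in young wild type. Cox4i2, a cytochrome oxidase subunit isoform that responds to oxygen, was 9.02, 8.76, 9.91 and 12.49 in the tumours and 7.35 to 8.96 in hyperplasia. In both genes pheochromocytoma 4 stood well above the rest, as it did for Tac3. Mreg, the melanoregulin gene of organelle transport, was 5.32 to 5.64 in pheochromocytomas 1 to 3 and 8.63 in pheochromocytoma 4. Hs3st2, a heparan sulfate sulfotransferase, was 5.84 to 6.61 in those 3 tumours and 9.50 in pheochromocytoma 4. Apoc1, an apolipoprotein gene, was 5.75 to 6.37 and then 9.75. The likeness covers mutant arrays only, and not all 10 genes were low in wild type as Tac3 and Adora2a were. Prmt8 was 7.88 to 8.76 in older and 8.29 to 8.87 in young wild type, against 6.07 to 7.25 in hyperplasia. Apoc1 was 6.25 to 6.79 in young wild type, against a median of 5.87 in hyperplasia.

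Cldn5, a tight junction gene of endothelium, was 5.42 to 5.67 in pheochromocytomas 1 to 3 and 8.31 in pheochromocytoma 4. The endothelium marker mean was 8.79 to 8.93 in the first 3 tumours and 9.30 in pheochromocytoma 4, and the fibroblast and pericyte mean 8.39 to 8.70 and 8.88. The cortex marker mean was lowest in pheochromocytoma 4 among the tumours, at 10.28. The part of these cell types in the Tac3 level of that tumour was not tested.

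Without pheochromocytoma 4 the r of the 10 genes was 0.623 to 0.828, and 7 of 10 stayed at or above 0.7. Leaving out the 2 arrays farthest from the median of Tac3, pheochromocytoma 4 and hyperplasia 3, gave 0.107 to 0.863, lowest for Cldn5 and highest for Vof16. Spearman's rho over the 12 arrays was 0.469 to 0.895. Within the 8 hyperplasias r was 0.662 to 0.874, and 8 of 10 were at or above 0.7, as were 14.9% of the 819 genes. These 8 arrays are part of the 12 by which the genes were chosen, so this is no independent check of the likeness. Ube2ql1, a ubiquitin-conjugating enzyme gene, kept an r of 0.874 within hyperplasia and 0.823 without pheochromocytoma 4, although it passed the SD filter only through that tumour.

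**Figure D5:**
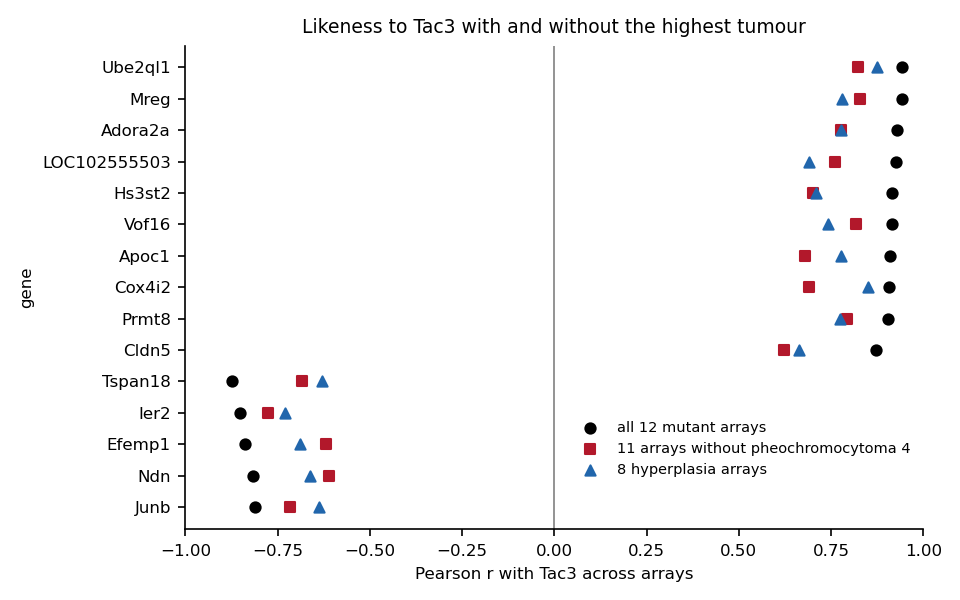
Pearson r with Tac3 (horizontal axis) is shown for the 10 genes with the highest and the 5 with the lowest values (vertical axis), over all 12 mutant arrays (circles), without pheochromocytoma 4 (squares) and over the 8 hyperplasias (triangles). All 15 genes keep their sign in the 3 sets, with smaller values for each gene once pheochromocytoma 4 is left out.

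The 5 genes that ran most against Tac3 were Tspan18, Ier2, Efemp1, Ndn and Junb, with r of -0.875 to -0.812 over 12 arrays and -0.729 to -0.631 within hyperplasia. Tspan18, a tetraspanin gene, was 9.56 to 9.73 in pheochromocytomas 1 to 3 and 7.15 in pheochromocytoma 4. Ier2 and Junb are immediate early genes, which respond within minutes to stimuli, handling of tissue included. Junb was 7.60, 8.87, 9.12 and 7.43 in pheochromocytomas 1 to 4, low in the tumours with the most Tac3. When each group was centred on its mean, the 5 genes most like Tac3 were Ube2ql1, Mreg, Apoc1, LOC102555503 and Adora2a, all of them also among the 10.

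Several of these genes moved with Xist among the hyperplasias. Of the 10 highest, 5 were lower on each of the 4 arrays with high Xist than on each of the 4 with low Xist, as were 20.9% of the 819 genes. Adora2a was 5.88 to 6.41 on arrays with high Xist and 7.47 to 8.32 on arrays with low Xist. Apoc1 was 5.19 to 5.56 and 6.19 to 7.03 on the same arrays. Of the 5 lowest, 3 were higher on each array with high Xist, as were 19.2% of the 819 genes, and Tspan18 was 11.22 to 11.35 on arrays with high Xist and 9.51 to 9.89 on arrays with low Xist. Tac3 itself overlapped between these arrays, and the part of Xist in the correlations was not tested.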

How the data were processed

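Each array has a deposited log2 value for every probe set, made with RMA (robust multi-array averaging) per the submitters' processing notes. The sources used here give neither its version nor which arrays were normalized together. Per the labels, Trizol and column extracts of total RNA were amplified and labelled with biotin. The members and gene lists were chosen with earlier results of these data known. Of 31099 probe sets, 57 controls were left out. In the platform annotation 20826 probe sets had 1 symbol, 436 several and 9780 none, and 20758 were found in the RefSeq gene table by Entrez identifier, with 0 changed symbols. A gene was its probe set with the highest mean over 16 arrays.

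A linear model (limma 3.58.1, R 4.3.3, with eBayes) was fitted to all 16 arrays with 4 groups and no covariate (12 residual degrees of freedom, median prior 3.98), with Benjamini-Hochberg adjustment over 31042 probe sets, two-sided, and an adjusted p under 0.05 as threshold. Where nothing says that arrays came from separate litters, p-values measure only the spread between these samples. The fit was tested on simulated data. Labelled sex was an alternative and not a covariate, because it disagreed with Xist. The comparison of older with young wild type, the fit without the 4 hyperplasias whose Xist disagreed with the label, the correlations without pheochromocytoma 4 and the ranges by Xist level were added after the data were seen. Of the tachykinin precursor list Tac4 was not analysed here, and counts over the other lists cover their measured genes. Named genes were both members, all measured receptor, processing and peptidase genes, up to 4 passing members of the other pathway lists, and the 10 highest, 5 lowest and 5 highest centred correlations with Tac3. Calls rest on the brightest probe set of a gene, and dimmer ones are given where they fell on the other side of the threshold for a difference that the report names. Exact permutation tests used SciPy 1.17.1. With 2 pools per wild-type group, the arrays are few and their number limits precision.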

Additional observations from a re-analysis of the deposited data

Results flagged for a closer look

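Dixon's test for a value apart from the rest was run on 62 groups of values, those of 31 genes in the 4 tumours and in the 8 hyperplasias, and 8 stood apart. Chance alone gives about 1 in 20 groups of values, a rate that does not hold for genes chosen by their likeness to Tac3. Tac3 itself did not stand apart among the tumours, where the gap of pheochromocytoma 4 to the next was 0.71 of the range, under the critical 0.829. Of the 8, 6 were pheochromocytoma 4. It was far above the other tumours for Ube2ql1 (9.00, against 7.66 to 7.79), Mreg (8.63, against 5.32 to 5.64), LOC102555503 (7.92, against 6.65 to 6.86), Apoc1 (9.75, against 5.75 to 6.37) and Cldn5 (8.31, against 5.42 to 5.67), and far below them for Tspan18 (7.15, against 9.56 to 9.73). These genes were chosen for their likeness to Tac3, or its opposite, on the same arrays, so their distance from the other tumours is not independent of Tac3. The remaining values were those of hyperplasia 3, which was lower than the rest in Tac1 (4.16, against 4.68 to 5.12) and in Cldn5 (5.17, against 5.42 to 5.63).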

How the results depend on the processing

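Tac3 kept its direction in all 27 alternatives of each mutant comparison, with log2 differences of 3.41 to 4.87 in pheochromocytoma against older wild type, 2.48 to 3.14 in hyperplasia against young wild type and 0.90 to 2.38 in pheochromocytoma against hyperplasia. Both smallest differences of the tumours came without pheochromocytoma 4. The Tac1 difference in pheochromocytoma against older wild type was 0.43 with the mean of the cortex markers as covariate, -0.0293 with median centring and -0.0756 to 0.1349 when 1 array was left out. In pheochromocytoma against hyperplasia it was 0.27 with quantile normalization, 0.28 to 0.42 when 1 array was left out and 0.45 without the 4 hyperplasias whose Xist disagreed with the label. Tac1 was not among the probe sets left without the 30% dimmest. The Tac3 and Tac1 differences by labelled sex, of -1.08 to -0.10 and -0.32 to -0.03 when 1 array was left out, passed in no setting.

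Replicate numbers are shared between the groups but did not pair the arrays: deviations of same-numbered arrays from their group means correlated at -0.179 to 0.212. With the replicate number as a block the Tac1 differences were 0.11 in pheochromocytoma against older wild type and 0.48 in pheochromocytoma against hyperplasia. With the block 1593 probe sets passed in pheochromocytoma against older wild type, against 4425 without it, and 556 in hyperplasia against young wild type, against 2296. Of the 14 receptor, processing and peptidase genes 0 passed with it in hyperplasia against young wild type (2 unadjusted) and 3 in pheochromocytoma against hyperplasia, against 6.

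Counts of probe sets in pheochromocytoma against older wild type were 110 with the cortex covariate, 1915 with the 2 groups alone and 596 to 4781 when 1 array was left out, lowest without older wild-type pool 2. In hyperplasia against young wild type they were 321 with the cortex covariate, 689 without the 4 hyperplasias whose Xist disagreed with the label and 564 to 2687 when 1 array was left out, 910 without young pool 1 and lowest without young pool 2. In older against young wild type they were 3770 with the 2 groups alone and 4500 to 7681 when 1 array was left out, against 7366.

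Of the 14 genes, the 3 in pheochromocytoma became 0 with the cortex covariate (4 unadjusted in limma), 1 with the 2 groups alone and 0 to 8 when 1 array was left out, 0 without older pool 2 (4 unadjusted) and 8 without older pool 1. The 1 in hyperplasia became 0 with the cortex covariate (3 unadjusted), 2 with the 2 groups alone and with an intensity trend, 0 without the 4 hyperplasias (2 unadjusted), and 0 to 1 when 1 array was left out, 0 without either young pool (4 and 2 unadjusted). The 7 in older against young wild type became 2 with the 2 groups alone, 4 with quantile normalization and without the 4 hyperplasias, and 3 to 7 when 1 array was left out. The cause was not tested, beyond the smaller number of arrays where some were left out.

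Of the 10 genes most like Tac3, 6 were among the 10 by Spearman's rho, 0 among the 10 within the 8 hyperplasias alone, 3 without the 2 farthest arrays and 3 to 10 when 1 array was left out, lowest without pheochromocytoma 4.

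The pathway lists other than the precursors held genes past the threshold that were not all named above. Of all of them, 4 of 14 in pheochromocytoma against older wild type stayed past it whichever array was left out. In hyperplasia against young wild type 2 of 10 stayed, in pheochromocytoma against hyperplasia 18 of 26 and in older against young wild type 5 of 23. The 4 were Prkcd, Rgs4, Gal and Npy, and the 2 were Gal and Calca. With the cortex covariate 1, 2, 26 and 20 stayed, and with the replicate number as a block 8, 4, 22 and 21.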

Other observations

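Other genes varied with Tac3 among the 8 hyperplasias alone. Among the 819 genes the 10 with the highest r there were Mta3, Prlr, Kif5c, Igdcc4, Echdc3, Sstr1, Isg20, Evi5, Kif1a and Srrm2. None of them was among the 10 found over the 12 mutant arrays. Mta3, a subunit of a chromatin remodelling complex, had an r of 0.963 within hyperplasia and -0.491 over the 12 arrays. Its log2 value was 8.18 to 8.32 in pheochromocytomas 1 to 3 and 8.22 in pheochromocytoma 4, and 9.23 to 9.80 in hyperplasia. Prlr, the prolactin receptor, had an r of 0.940 within hyperplasia and -0.380 over 12, and was 9.33 to 11.21 in hyperplasia, against 11.79 to 11.91 in young wild type. Sstr1, a somatostatin receptor, had an r of 0.921 within hyperplasia and was 6.71 to 8.53 there, against 4.93 to 6.33 in young wild type. Kif5c and Kif1a, kinesin motors of axonal transport, had an r of 0.939 and 0.908 within hyperplasia and 0.655 and 0.646 over 12. These genes were chosen by their r, and 14.9% of the 819 genes reached an r of 0.7 within hyperplasia.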
